A study of Homo sapiens with 12 samples.

Results

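The expression state at day 15 of a differentiation of H9 cells was compared with the states on either side of it, days 10 and 20. H9 is an established human embryonic stem cell line, wild-type per the labels, kept on mouse embryonic fibroblast feeders before a cytokine-driven protocol aimed at γδ T cells. The 9 libraries used, of 12 in the series, were 3 from day 10, labelled haematopoietic progenitor cells, 3 from day 15 and 3 from day 20, both labelled T progenitor cells. All of these cultures shared the early steps (CHIR99021, BMP4, Activin A and a ROCK inhibitor first, VEGF and bFGF next, then also SB431542 with Flt3L, SCF and IL-7), and the later cultures were in MEM-α with serum, DLL4 (a Notch ligand), SCF, Flt3L and IL-7 from day 10 on. The 3 libraries of day 25, labelled mature γδ T cells, entered no comparison and are quoted only as values. The table held between 27026196 and 36606215 counts in each of the 9 libraries. Levels below are CPM, the counts scaled to a common library size after TMM, which sets each library against the others by the bulk of its genes. Folds, log2 changes and p-values adjusted by Benjamini-Hochberg over all 19461 genes tested come from a single edgeR quasi-likelihood model with a coefficient for each day. Nothing in the labels tells if replicates were grown separately, so p-values cover the variation among these libraries alone, possibly only a technical one.

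Cultures of this kind pass through a stage in which several blood lineages arise side by side. Megakaryocytes are large cells that stop dividing, copy their genome without splitting, and load their cytoplasm with the adhesion receptors, granules and cytoskeleton of platelets. Interferon-β is secreted by cells that sense foreign or misplaced nucleic acid, and it switches on a set of antiviral genes through dedicated transcription factors. Replication-dependent histone genes lie in clusters and are normally made in S phase, when DNA is copied, and their main transcripts end in a stem-loop in place of a poly(A) tail.

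A gene counted as above both neighbours when day 15 was higher than day 10, than day 20 and than their mean, each at an adjusted p under 0.05, and as below both when all 3 differences passed downwards. Of the 19461 genes tested, 4583 (23.5%) were above both at day 15 and 5508 (28.3%) were below both. At least a 2-fold difference from each neighbour was seen in 2651 genes above (13.6%) and 2138 below (11%). The rises were the larger: the smaller of the 2 steps had a median of 1.22 on the log2 scale (2.33-fold) among genes above both, and of -0.82 (1.77-fold lower) among genes below both. Differences of 8-fold or more from each neighbour numbered 549 above and 72 below, and of 16-fold or more 234 and 29. All 3 day 15 libraries lay above all 6 others for 4762 genes (24.5%) and below them for 5523 (28.4%).

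The contrast of day 15 with the mean of its neighbours alone was broader, with 6709 genes higher (34.5%) and 8228 lower (42.3%). Of the higher genes 68.3% were above both neighbours, and 811 (12.1%) lay between them with each step passing. Of the lower genes 66.9% were below both and 650 (7.9%) lay between. The split depended on scaling. With plain library sizes 5138 genes were higher and 10428 lower, which is 33.0% of calls higher against 44.9% with TMM, and the median log2 contrast of all genes was -0.51 against -0.15. The balance turned the other way with all 12 libraries (8027 higher and 6963 lower, 53.5% higher), with DESeq2 size factors (7542 and 7297, 50.8%) and without the platelet and factor list genes (8049 and 6697, 54.6%). The genes above and below both were then 5446 and 4355 with all 12 libraries, 5140 and 4703 with size factors, and 5555 and 4178 without the list genes. At the limit of 2-fold the gene just inside on the upper side was NMT2 (8.79, 20.3 and 10.2 CPM at days 10, 15 and 20) and the gene just outside was SSX2IP (91.0, 182 and 19.6 CPM). On the lower side they were IMPACT (41.8, 20.3 and 40.6 CPM) and POLR1B (42.0, 15.7 and 31.4 CPM).

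**Figure D1:**
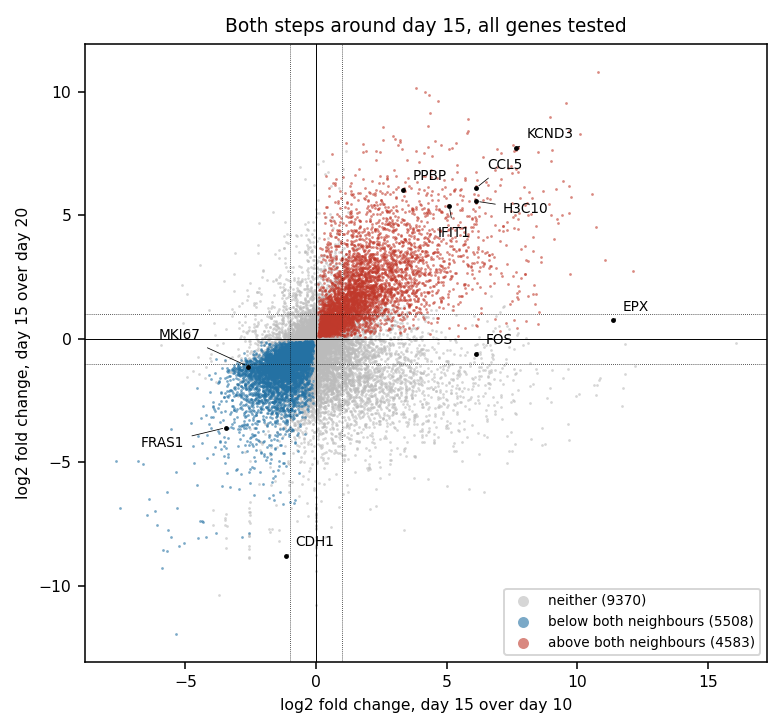
Each point is 1 of 19461 genes, with the log2 fold change of day 15 over day 10 on the horizontal axis and of day 15 over day 20 on the vertical axis; dotted lines mark 2-fold. The 4583 genes above both neighbours fill the upper right, the 5508 below both fill the lower left, and EPX and FOS are examples whose day 15 level was far above day 10 while the step to day 20 was small.

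The largest transient rises, among genes with at least 10 CPM at day 15, were in genes with low levels on either side. KCND3, a voltage-gated potassium channel subunit (ENSG00000171385, chromosome 1 from 111770662 to 111989155 in GRCh38), had 0.946, 0.769 and 1.67 CPM at day 10. At day 15 KCND3 had 231, 218 and 219 CPM, and at day 20 it had 1.4, 0.693 and 1.04 CPM. All 3 day 15 libraries stood far above the other 6, and the log2 contrast was 7.70 ± 0.08 (SE; adjusted p = 1.4e-35). The platelet ADP receptor gene P2RY12, the target of antiplatelet drugs (ENSG00000169313, chromosome 3 from 151337380 to 151384812), had 0.979, 1.28 and 0.765 CPM at day 10. At day 15 P2RY12 had 128, 129 and 126 CPM, and at day 20 it had 0.733, 0.542 and 0.565 CPM. All day 15 libraries lay above the other 6, 123-fold over day 10 and 207-fold over day 20. P2RY12 lies inside MED12L, which is read from the other strand and which averaged 105.5, 61.9 and 3.32 CPM at days 10, 15 and 20; without strand, reads of the overlap cannot be assigned. The T-cell and platelet ligand gene CD40LG averaged 0.283 ± 0.184, 19.8 ± 2.5 and 0.229 ± 0.0776 CPM at days 10, 15 and 20 (SD, n = 3 each, as for every mean below). The adenylyl cyclase gene ADCY8 averaged 0.9 ± 0.24, 75.7 ± 2.27 and 0.455 ± 0.104 CPM at days 10, 15 and 20. Others of the 10 with the largest peaks were ENTHD1, BEND2, TRAPPC3L, PDZK1IP1 and CALHM5, with day 15 means between 12.4 CPM (ENTHD1) and 353 CPM (PDZK1IP1) and peaks between 69.4-fold (CALHM5) and 187-fold (ENTHD1) over the nearer neighbour. TRAPPC3L and CALHM5 overlap on opposite strands, and without strand their reads cannot be told apart.

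The deepest troughs were shallower among genes with at least 10 CPM at the lower neighbour, a limit that leaves out deeper falls of weakly expressed genes. The basement membrane gene FRAS1 had 61.2, 68.7 and 70.9 CPM at day 10. At day 15 FRAS1 had 6.18, 7.35 and 5.27 CPM, and at day 20 it had 74, 75.3 and 75 CPM, with the day 15 libraries about an order of magnitude under the rest (10.7-fold lower than day 10 and 12-fold lower than day 20). ALDH1A1, a retinaldehyde dehydrogenase and a stem cell marker, averaged 23 ± 2.32, 2.27 ± 0.629 and 27.5 ± 1.44 CPM at days 10, 15 and 20. The secreted glycoprotein gene RELN averaged 33.1 ± 3.34, 4.19 ± 0.355 and 83.7 ± 5.79 CPM at days 10, 15 and 20. The microsomal glutathione transferase gene MGST1 averaged 28.2 ± 1.79, 5.24 ± 0.133 and 33.7 ± 1.15 CPM at days 10, 15 and 20. The histone variant gene MACROH2A2 averaged 48.4 ± 2.45, 6.53 ± 0.825 and 38.3 ± 0.204 CPM at days 10, 15 and 20. ARPIN, FIRRE, RAB11FIP5, ALDH7A1 and AFMID completed the 10 deepest above that limit, each between 5.42-fold (AFMID) and 6.45-fold (ARPIN) under the nearer neighbour.

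Platelet genes held the largest share of counts among the groups that rose. Of 23 adhesion receptor genes tested, 21 were above both neighbours at day 15 (14 at least 2-fold), as were 17 of 23 granule and secreted protein genes (11) and 25 of 30 cytoskeleton and signalling genes (18), where 23.5% of all genes tested were. The list medians of the log2 contrast were 3.24, 3.04 and 2.37, against -0.15 over all genes tested. PPBP, a platelet chemokine that leaves the granules on activation (ENSG00000163736, chromosome 4 from 73987038 to 73988197), had 619, 617 and 592 CPM at day 10. At day 15 PPBP had 6016, 5968 and 6155 CPM, and at day 20 it had 90.3, 93.1 and 94.1 CPM. The day 15 libraries held about an order of magnitude more than day 10 (9.92-fold) and far more than day 20 (65.4-fold, log2 contrast 4.67 ± 0.02, adjusted p = 2.5e-51). TUBB1, the β-tubulin of the platelet marginal band (ENSG00000101162, chromosome 20 from 59019254 to 59026654), had 396, 395 and 403 CPM at day 10. At day 15 TUBB1 had 4182, 4197 and 4277 CPM, and at day 20 it had 51.2, 49.1 and 54.9 CPM. Day 15 was 10.6-fold above day 10 and 81.6-fold above day 20, with no overlap. The fibrinogen receptor genes ITGA2B and ITGB3 were already high at day 10. ITGA2B averaged 2111 ± 66.4, 5271 ± 129.6 and 147 ± 0.651 CPM at days 10, 15 and 20, a step up of 2.5-fold and a step down of 35.9-fold. ITGB3 averaged 2774 ± 53.2, 6252 ± 81.2 and 133 ± 6.53 CPM at days 10, 15 and 20, with steps of 2.25-fold and 47-fold.

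Granule and receptor genes differed in how steeply they peaked. The factor XIII gene F13A1 averaged 126 ± 4.49, 2434 ± 18.5 and 54.5 ± 0.981 CPM at days 10, 15 and 20. The neutrophil-attracting chemokine gene CXCL5 averaged 12.1 ± 1.42, 513 ± 15.7 and 21.1 ± 0.26 CPM at days 10, 15 and 20. VWF, which encodes the factor that tethers platelets to collagen, averaged 28.4 ± 1.9, 235 ± 3.37 and 3.52 ± 0.347 CPM at days 10, 15 and 20. The prostacyclin receptor gene PTGIR rose 12.9-fold over day 10 and stood 38.2-fold over day 20. Some were already abundant at day 10. PF4, a granule chemokine, averaged 1031 ± 117, 2579 ± 178 and 58.3 ± 0.469 CPM at days 10, 15 and 20. GP9, part of the von Willebrand receptor, averaged 325 ± 10.8, 821 ± 41.6 and 13.1 ± 0.294 CPM at days 10, 15 and 20. The platelet lists together held 5.33%, 5.34% and 5.35% of the counts of the day 10 libraries, 10.2%, 10.1% and 10.2% at day 15, and 1.54%, 1.55% and 1.56% at day 20. Among the genes at least 2-fold above both, 7 of the 10 with the highest CPM at day 15 were platelet list genes (TLN1, FLNA, ITGB3, PPBP, ITGA2B, TUBB1 and VCL), and the others were the nuclear non-coding RNA NEAT1, the adaptor gene CMIP and GNAS, which encodes the stimulatory G-protein α subunit. NEAT1 averaged 750.2 ± 7.02, 6209 ± 117 and 928 ± 18.7 CPM at days 10, 15 and 20. These counts are not corrected for gene length.

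**Figure D2:**
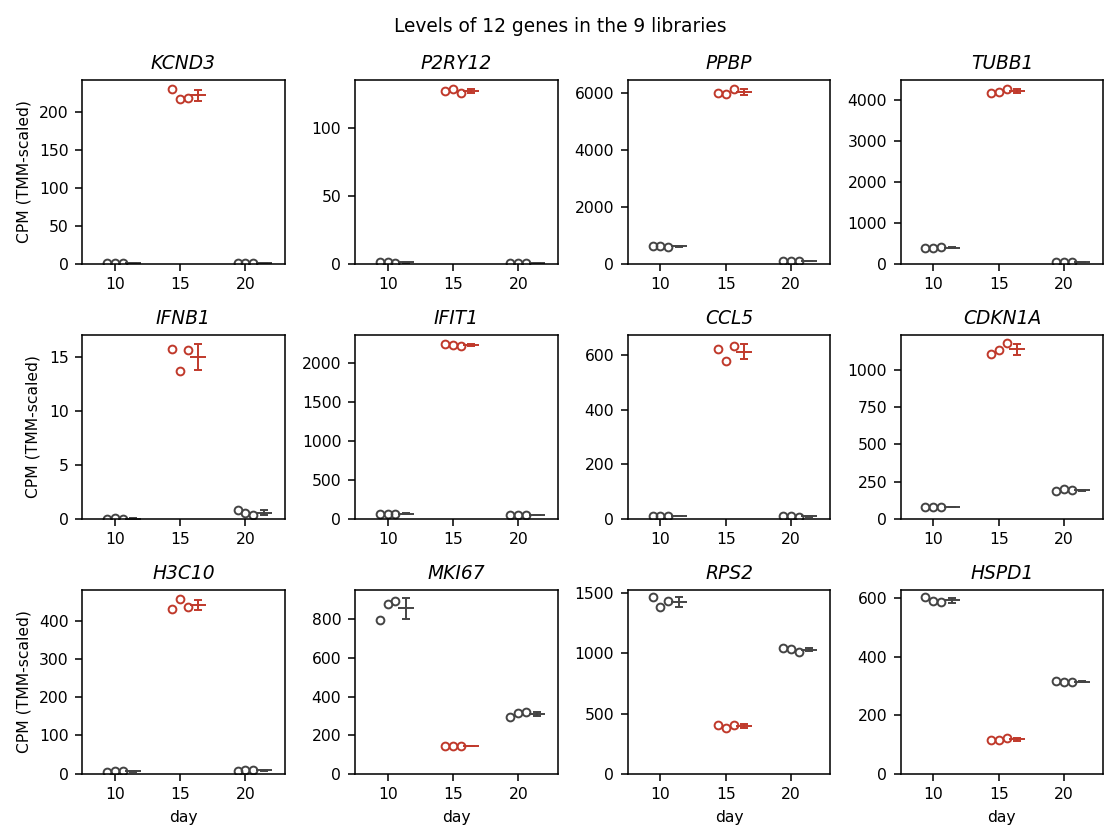
CPM of 12 genes in each of the 9 libraries (open circles, replicates 1 to 3 from left to right within a day) with the mean and SD of each day beside them, on linear axes from 0. In the panels of KCND3 to H3C10 the day 15 libraries stand above all others, and in those of MKI67, RPS2 and HSPD1 below all others.

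The transcription factors of the erythroid and megakaryocytic branches moved less. Of 21 tested, 11 were above both (52.4%, 5 at least 2-fold) and 2 below both (9.52%), against 23.5% and 28.3% of all genes tested. TAL1 had 751, 759 and 773 CPM at day 10. At day 15 TAL1 had 2147, 2115 and 2131 CPM, and at day 20 it had 71.5, 74.6 and 73.3 CPM, with day 15 highest in every library, 2.8-fold over day 10 and 29.1-fold over day 20. NFE2, which drives platelet release, averaged 394 ± 3.48, 1198 ± 47.6 and 107 ± 6.19 CPM at days 10, 15 and 20. The homeobox gene MEIS1 averaged 251 ± 10.3, 887 ± 8.82 and 40.8 ± 3.42 CPM at days 10, 15 and 20. GATA1, the master factor of both branches, averaged 307 ± 0.806, 420.2 ± 13.9 and 27.8 ± 1.35 CPM at days 10, 15 and 20, a rise of only 1.37-fold from day 10 (adjusted p = 4.0e-14). Of 35 globin and red cell genes 20 were above both and 2 below. The blood group gene KEL averaged 102 ± 2.42, 1583 ± 19 and 23.6 ± 3.09 CPM at days 10, 15 and 20. The bisphosphoglycerate mutase gene BPGM averaged 17.8 ± 1.34, 160.3 ± 4.56 and 15.7 ± 2.2 CPM at days 10, 15 and 20. Globin genes were above both as well. The fetal globin gene HBG2 averaged 222 ± 20.0, 309.7 ± 11.6 and 5.64 ± 0.374 CPM at days 10, 15 and 20. The α-globin gene HBA1 averaged 32 ± 4.03, 81 ± 9.25 and 2.95 ± 0.34 CPM at days 10, 15 and 20. HBG2 is near-identical to HBG1 and HBA1 to HBA2, so their split is uncertain. The 5 megakaryocyte markers summed to between 13816 and 14588 CPM per library at day 15. Their sums were 4095 to 4462 CPM at day 10 and 309 to 315 CPM at day 20. These markers include ITGA2B, GP9, PF4 and TUBB1, already given above, so their sum is not a separate check of the cell type. In bulk RNA, more cells of a type and more of its RNA per cell cannot be told apart.

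Interferon genes formed a second group whose level at day 15 was high against both sides. IFNB1, which encodes interferon-β (ENSG00000171855, chromosome 9 from 21077105 to 21077963), had 0, 0.0513 and 0 CPM at day 10. At day 15 IFNB1 had 15.7, 13.6 and 15.7 CPM, and at day 20 it had 0.829, 0.542 and 0.377 CPM. These were 1167 counts over the 3 day 15 libraries against 2 at day 10 and 56 at day 20, 25.6-fold over day 20 (adjusted p = 2.1e-19), and 0 at day 25. It was the only one of 13 interferon ligand genes with enough counts to be tested. The cytosolic sensors of viral RNA were above both, RIGI at 46.7 ± 3.71, 497 ± 7.78 and 30.1 ± 0.646 CPM at days 10, 15 and 20. IFIH1 averaged 30.4 ± 1.66, 349.7 ± 7.96 and 42.2 ± 3.61 CPM at days 10, 15 and 20. The DNA sensing adaptor gene STING1 was below both at 112 ± 3.12, 45.6 ± 4.24 and 106 ± 1.27 CPM at days 10, 15 and 20. The DNA sensor gene CGAS averaged 8.12 ± 0.507, 5.93 ± 1.12 and 12.1 ± 0.548 CPM at days 10, 15 and 20, below both except when all 12 libraries were fitted together (log2 contrast -0.53) or when the platelet and factor lists were left out (-0.50). Of 32 regulators 15 were above both (46.9%, 9 at least 2-fold) and 4 below (12.5%), against 23.5% and 28.3% of all genes tested. IRF1 averaged 16 ± 1.3, 168 ± 3.27 and 34.7 ± 2.44 CPM at days 10, 15 and 20, and IRF7, which amplifies the response, 57.1 ± 0.58, 245 ± 14.4 and 66.2 ± 1.48 CPM at days 10, 15 and 20. The constitutive factor gene IRF3 was below both at 65.3 ± 2.31, 43.4 ± 3.08 and 56.6 ± 1.48 CPM at days 10, 15 and 20.

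Among 42 interferon-stimulated genes 29 were above both neighbours (69.0%, against 23.5% of all genes tested), 26 of them at least 2-fold. The list's median log2 contrast was 2.14 against -0.15 over all genes tested. The 2 below both were the antiviral membrane protein genes BST2 and IFITM2. BST2 averaged 37.2 ± 3.03, 27 ± 2.7 and 139 ± 5.36 CPM at days 10, 15 and 20. IFITM2, which overlaps IFITM1 on the same strand, averaged 84.7 ± 1.55, 55.4 ± 2.38 and 97.5 ± 5.05 CPM at days 10, 15 and 20. IFIT1, which binds foreign RNA ends (ENSG00000185745, chromosome 10 from 89392546 to 89406486), had 67.4, 67 and 60.9 CPM at day 10. At day 15 IFIT1 had 2241, 2226 and 2211 CPM, and at day 20 it had 54.6, 53.1 and 51.2 CPM. Every day 15 library stood more than an order of magnitude above the other 6, 34.2-fold over day 10 and 42-fold over day 20 (adjusted p = 7.0e-46 and 8.4e-47). The adjacent genes IFIT2 and IFIT3 were above both as well. IFIT2 averaged 6.87 ± 0.592, 1223 ± 15.8 and 33.9 ± 1.13 CPM at days 10, 15 and 20. IFIT3 averaged 28.7 ± 3.34, 1495 ± 20.3 and 64.1 ± 3.75 CPM at days 10, 15 and 20. The ISG15 ligase gene HERC5 averaged 21 ± 0.708, 618 ± 12.4 and 37.9 ± 2.71 CPM at days 10, 15 and 20. ISG15, a ubiquitin-like modifier, averaged 217 ± 9.8, 875 ± 14.5 and 64.5 ± 4.72 CPM at days 10, 15 and 20. Together the list held between 1.16% and 1.18% of counts in the day 15 libraries, against 0.299% to 0.305% at day 10 and 0.294% to 0.299% at day 20.

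The promoters of the 4 listed genes with the largest peaks among those with a sequence are shown because the interferon-stimulated response element, the DNA motif through which interferon acts on its target genes, was searched for in them. They are RefSeq sequences on GRCh38.p14 from 250 bases before to 50 bases after the gene start, 5′ to 3′ along the gene, at chr10:89392373-89392672 (plus strand), chr10:89327747-89328046 (plus strand), chr4:88456869-88457168 (plus strand) and chr2:6865635-6865934 (plus strand). Capitals mark matches, on either strand, to GAAA followed by any 2 bases and GAAA again.
IFIT1: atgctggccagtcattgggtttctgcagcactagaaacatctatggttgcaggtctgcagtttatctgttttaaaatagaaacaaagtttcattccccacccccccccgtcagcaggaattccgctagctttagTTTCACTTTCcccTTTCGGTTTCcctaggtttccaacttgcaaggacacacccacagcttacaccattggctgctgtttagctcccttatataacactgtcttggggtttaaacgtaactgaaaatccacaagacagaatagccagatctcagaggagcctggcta
IFIT3: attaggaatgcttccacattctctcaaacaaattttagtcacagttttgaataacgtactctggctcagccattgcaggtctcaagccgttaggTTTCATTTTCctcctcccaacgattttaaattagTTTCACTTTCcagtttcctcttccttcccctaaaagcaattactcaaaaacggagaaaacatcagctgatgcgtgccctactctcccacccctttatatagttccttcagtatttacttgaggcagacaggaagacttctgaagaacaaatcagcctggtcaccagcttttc
HERC5: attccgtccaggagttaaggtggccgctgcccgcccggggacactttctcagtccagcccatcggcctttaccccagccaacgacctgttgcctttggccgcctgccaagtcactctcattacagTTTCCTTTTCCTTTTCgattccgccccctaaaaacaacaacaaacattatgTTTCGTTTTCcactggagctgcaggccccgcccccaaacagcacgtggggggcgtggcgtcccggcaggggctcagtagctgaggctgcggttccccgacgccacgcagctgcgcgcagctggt
RSAD2: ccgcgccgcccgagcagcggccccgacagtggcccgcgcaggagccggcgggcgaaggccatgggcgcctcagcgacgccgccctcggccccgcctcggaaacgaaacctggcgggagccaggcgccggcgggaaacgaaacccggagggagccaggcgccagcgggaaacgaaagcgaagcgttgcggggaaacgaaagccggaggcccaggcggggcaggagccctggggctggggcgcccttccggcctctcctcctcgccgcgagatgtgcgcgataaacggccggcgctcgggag
IFIT1 and IFIT3 held 2 matches each and HERC5 held 3, of which 2 overlap. RSAD2, the gene of the antiviral enzyme viperin, held none with these letters. Of the 24 listed genes above both with a promoter in the table, 17 (70.8%) held a match. The share was 3.65% of all 27305 promoters and 2.98% of the 13668 for tested genes. It was 4.48% of the 1651 available for genes at least 2-fold above both and 1.92% of the 1612 for genes at least 2-fold below both. Listed genes not above both were not counted separately. The 70.8% therefore describes the list and cannot be tied to the day 15 peak. A match is a description of the letters and not evidence of binding.

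Several chemokine genes and most listed MHC class I presentation genes were above both. No gene of the MHC class II and dendritic cell list was. CCL5, a chemokine for T cells and eosinophils (ENSG00000271503, chromosome 17 from 35871491 to 35880793), had 8.71, 8.69 and 9.12 CPM at day 10. At day 15 CCL5 had 623, 579.6 and 633 CPM, and at day 20 it had 10.2, 8.46 and 8.23 CPM. Days 10 and 20 were close to each other and day 15 lay 69.3-fold and 68.4-fold above them. The interferon-inducible chemokine gene CXCL10 averaged 0.563 ± 0.0539, 48.8 ± 1.67 and 5.73 ± 0.944 CPM at days 10, 15 and 20. CXCL3, another neutrophil attractant, averaged 65 ± 1.06, 255 ± 5.53 and 39.1 ± 1.28 CPM at days 10, 15 and 20. Of 31 NF-kB targets and inflammatory cytokines tested, 12 were above both (38.7%, against 23.5% of all genes tested) and 0 below both. Of 17 MHC class I and peptide loading genes 12 were above both (6 at least 2-fold) and 4 below both. The peptide transporter gene TAP1 averaged 19.8 ± 1.43, 310.4 ± 4.68 and 45.5 ± 1.35 CPM at days 10, 15 and 20. The immunoproteasome gene PSMB9 averaged 2.82 ± 0.607, 38.1 ± 3.45 and 10.6 ± 1.62 CPM at days 10, 15 and 20. Of 22 listed MHC class II and dendritic cell genes 0 were above both and 4 were below (18.2%, against 28.3% of all genes tested). HLA-DPA1 was below both at 19 ± 0.704, 6.46 ± 1.38 and 52 ± 2.43 CPM at days 10, 15 and 20. The class II gene HLA-DOB, which is outside this list, was at least 2-fold above both.

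Replication-dependent histone genes rose at day 15 while the genes of DNA replication and mitosis fell. Of 27 tested histone genes 23 were above both neighbours, each by at least 2-fold, and 0 below both. That is 85.2% above both, against 23.5% of all genes tested, with a median log2 contrast of 4.38. H3C10, an H3 gene of the chromosome 6 cluster (ENSG00000278828, chromosome 6 from 27810064 to 27811300), had 5.81, 6.08 and 7.27 CPM at day 10. At day 15 H3C10 had 431, 456 and 436 CPM, and at day 20 it had 8.29, 10.2 and 9.24 CPM. The day 15 libraries exceeded the others by 69.4-fold and 47.5-fold (log2 contrast 5.84 ± 0.05, adjusted p = 1.7e-45). H2BC11 averaged 1.65 ± 0.5, 113 ± 1.75 and 2.5 ± 0.24 CPM at days 10, 15 and 20. H2BC8 averaged 1.11 ± 0.391, 334 ± 8.21 and 10.2 ± 0.747 CPM at days 10, 15 and 20. H2AC13 averaged 0.826 ± 0.294, 30.3 ± 1.63 and 0.875 ± 0.211 CPM at days 10, 15 and 20. Histone genes of a class are close in sequence, so the split between single members is uncertain and the sum is firmer: the 32 listed genes held between 0.316% and 0.317% of counts in each day 15 library, against 0.00758% to 0.00795% at day 10 and 0.0208% to 0.0222% at day 20. The sources used here do not say whether the libraries were selected for poly(A) tails.

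Of 40 DNA replication and nucleotide synthesis genes 37 were below both neighbours (25 at least 2-fold), and of 38 mitosis genes 36 (30 at least 2-fold), where 28.3% of all genes tested were. The medians of the log2 contrast were -1.72 and -1.98. MKI67, the proliferation marker, had 796, 881 and 896 CPM at day 10. At day 15 MKI67 had 143, 144 and 142 CPM, and at day 20 it had 296, 316 and 318 CPM. Day 15 was lowest in every library, 6-fold below day 10 and 2.17-fold below day 20. The helicase gene MCM4 averaged 414 ± 2.4, 58.7 ± 1.21 and 160.0 ± 2.51 CPM at days 10, 15 and 20. The thymidylate synthase gene TYMS averaged 69.7 ± 2.62, 8.95 ± 0.686 and 20.3 ± 1.88 CPM at days 10, 15 and 20. E2F8, a repressor of the cell cycle programme, averaged 29.3 ± 0.829, 5.05 ± 0.814 and 18.6 ± 1.56 CPM at days 10, 15 and 20. The centromere histone gene CENPA averaged 34.5 ± 2.66, 3.54 ± 0.338 and 11.4 ± 1.81 CPM at days 10, 15 and 20. The spindle checkpoint gene MAD2L1 averaged 96.2 ± 6.31, 13.9 ± 1.87 and 41.1 ± 2.32 CPM at days 10, 15 and 20. Among the replication genes below both, day 15 stood at a median 19.4% of the day 10 level (range 11.4% to 39.7%) and day 20 at 40.1% (23.9% to 76.8%). For the mitosis genes the medians were 15.3% and 36.1%. The transcription factor genes E2F1 and MYBL2 were the exceptions above both. E2F1 averaged 86.8 ± 0.941, 169 ± 2.97 and 31.8 ± 0.826 CPM at days 10, 15 and 20. MYBL2 averaged 198 ± 6.95, 214 ± 2.76 and 80.9 ± 1.4 CPM at days 10, 15 and 20, 1.08-fold over the nearer day, a call lost with plain library sizes, at an adjusted p under 0.01 and without day 10 replicate 2. Both lists together held 0.225% to 0.228% of counts at day 15, against 1.32% in each day 10 library and 0.523% to 0.531% at day 20.

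**Figure D3:**
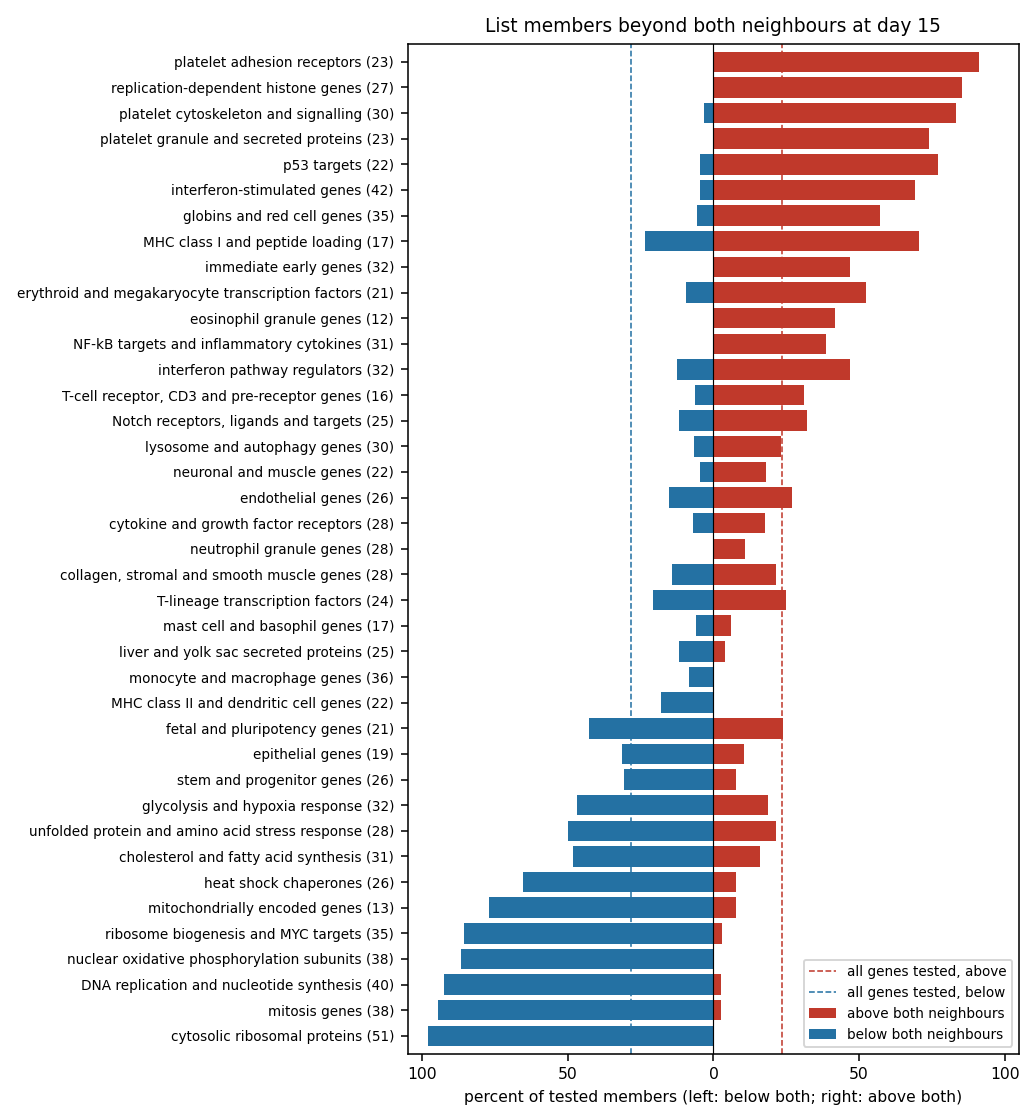
For each list with at least 10 tested members (number in brackets), bars give the percent of members above both neighbours (right) and below both (left), and dashed lines give the same percent over all genes tested, 23.5% above and 28.3% below. Platelet, histone, p53, MHC class I and interferon-stimulated gene lists extend furthest right. Ribosomal protein, mitosis, replication and oxidative phosphorylation lists extend furthest left.

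Genes of growth moved down with the cell cycle genes. Of 51 cytosolic ribosomal protein genes 50 were below both (98.0%, against 28.3% of all genes tested) and 0 above. Of the 50, 43 were at least 2-fold below, and the list's median log2 contrast was -1.30. RPS2 had 1466, 1382 and 1433 CPM at day 10. At day 15 RPS2 had 406, 378 and 407 CPM, and at day 20 it had 1042, 1037 and 1015 CPM, with the day 15 libraries 3.6-fold under day 10 and 2.6-fold under day 20. RPS18 averaged 501 ± 15.1, 157 ± 2.54 and 488 ± 18.7 CPM at days 10, 15 and 20. RPL10A averaged 454 ± 12.2, 133 ± 4.98 and 370.2 ± 11.1 CPM at days 10, 15 and 20. Ribosomal protein genes have many pseudogene copies, so single members are uncertain. Unlike the mitosis genes they stood at a median 92% of the day 10 level by day 20, after 39.2% at day 15. Of 35 ribosome biogenesis genes and MYC targets 30 were below both (10 at least 2-fold). MYC averaged 79.9 ± 2.44, 31 ± 2.94 and 58.9 ± 1.14 CPM at days 10, 15 and 20. The nucleolin gene NCL averaged 899 ± 23.3, 251 ± 5.42 and 487 ± 15.2 CPM at days 10, 15 and 20. NPM1, another nucleolar protein gene, averaged 711 ± 10.5, 166 ± 0.903 and 463 ± 14.5 CPM at days 10, 15 and 20. The spermidine synthase gene SRM averaged 73.5 ± 2.34, 19.2 ± 0.341 and 59.7 ± 1.39 CPM at days 10, 15 and 20. ODC1, the first enzyme of polyamine synthesis, was the exception above both at 84.2 ± 3.98, 229 ± 6.3 and 126 ± 5.58 CPM at days 10, 15 and 20.

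Energy and protein folding genes followed, with smaller changes. Of 38 nuclear oxidative phosphorylation genes 33 were below both, 1 of them (UQCRC1, 181 ± 4.72, 64.5 ± 0.811 and 138 ± 4.77 CPM at days 10, 15 and 20) by 2-fold or more. Of 13 mitochondrially encoded genes 10 were below both and 1 above, but this depended on the scaling, with 2 below both when all 12 libraries were fitted together, 5 with DESeq2 size factors and 12 with plain library sizes. Of 26 chaperone genes 17 were below both (5 at least 2-fold). HSPD1, the mitochondrial chaperonin gene, averaged 592 ± 8.49, 118 ± 4.39 and 314 ± 1.33 CPM at days 10, 15 and 20. HSP90AB1 averaged 1663 ± 30.1, 375 ± 14.7 and 887 ± 18.8 CPM at days 10, 15 and 20. DNAJB4 and HSPA1B were above both. DNAJB4 averaged 15.3 ± 1.56, 24.7 ± 1.71 and 12.5 ± 0.383 CPM at days 10, 15 and 20. HSPA1B, a near-identical copy of HSPA1A, averaged 17.8 ± 1.44, 21.8 ± 0.423 and 17.2 ± 1.66 CPM at days 10, 15 and 20. It lost the call without day 10 replicate 1 and had a log2 contrast of -0.04 with plain library sizes, against 0.32 with TMM. HSPA1A itself averaged 20.6 ± 1.17, 29.7 ± 3.93 and 42 ± 1.18 CPM at days 10, 15 and 20 and lay between its neighbours. Of 32 glycolysis and hypoxia genes 15 were below both (46.9%, against 28.3% of all genes tested). Another 6 were above both (18.8%, under the 23.5% of all genes tested). The lactate dehydrogenase gene LDHA averaged 451 ± 6.36, 146 ± 3.63 and 432 ± 8.71 CPM at days 10, 15 and 20. The phosphofructokinase gene PFKP averaged 203 ± 4.89, 33.8 ± 0.839 and 116 ± 4 CPM at days 10, 15 and 20. EGLN3, an oxygen-sensing hydroxylase induced by hypoxia, was above both at 25.9 ± 0.917, 319 ± 3.91 and 17.9 ± 1 CPM at days 10, 15 and 20. The pyruvate dehydrogenase kinase gene PDK1 was also above both at 43.5 ± 2.54, 176 ± 5.96 and 27.5 ± 2.25 CPM at days 10, 15 and 20. The glucose transporter genes went opposite ways, with SLC2A3, the form found in platelets, at 744 ± 28.2, 2552 ± 52.6 and 249.7 ± 2.8 CPM at days 10, 15 and 20. SLC2A1 averaged 81 ± 0.652, 27.7 ± 0.916 and 595 ± 11.5 CPM at days 10, 15 and 20.

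**Figure D4:**
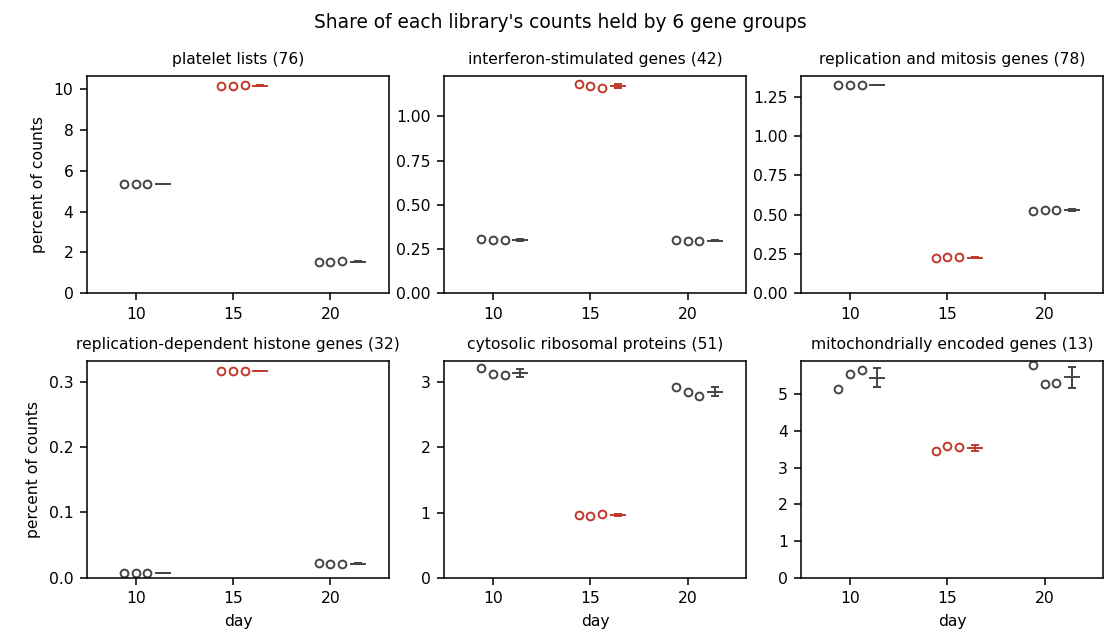
Percent of each library's counts held by 6 gene groups (number of genes in brackets), with open circles for the 3 libraries of a day, and the mean and SD beside them. Platelet, interferon-stimulated and histone genes are highest at day 15, with platelet genes at 10.2% on average, and replication and mitosis, ribosomal protein and mitochondrially encoded genes are lowest there.

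Most p53 targets peaked at day 15, whereas stress genes divided. Of 22 p53 targets 17 were above both (9 at least 2-fold), and TP53I3 (20.3 ± 1.11, 7.84 ± 0.448 and 12.9 ± 1.37 CPM at days 10, 15 and 20) was below both. CDKN1A, which encodes the cell cycle inhibitor p21 (ENSG00000124762, chromosome 6 from 36676460 to 36687339), had 81.6, 81.9 and 81.8 CPM at day 10. At day 15 CDKN1A had 1102, 1130.0 and 1176 CPM, and at day 20 it had 188, 197 and 190.5 CPM. The day 15 libraries lay 13.9-fold over day 10 and 5.92-fold over day 20. The cell death gene BBC3 averaged 13.8 ± 1.79, 466 ± 35.1 and 21.2 ± 0.921 CPM at days 10, 15 and 20. PMAIP1, of the same family, averaged 14.8 ± 0.839, 84 ± 4.67 and 21.4 ± 1.95 CPM at days 10, 15 and 20. TP53INP1 averaged 56.9 ± 1.45, 692 ± 3.74 and 87.9 ± 0.952 CPM at days 10, 15 and 20. Of 32 immediate early genes 15 were above both and 0 below. The mRNA decay factor gene ZFP36 averaged 44.2 ± 2.13, 721 ± 18 and 201 ± 6.48 CPM at days 10, 15 and 20. The phosphatase regulator gene PPP1R15A averaged 108 ± 3.79, 1476 ± 76.7 and 125 ± 4.63 CPM at days 10, 15 and 20. FOS, JUN and EGR1 were not among them, since they were higher again at day 20. FOS averaged 8.02 ± 0.139, 555 ± 10.8 and 846 ± 12.3 CPM at days 10, 15 and 20. JUN averaged 10.7 ± 0.595, 42.9 ± 1.32 and 181 ± 2.91 CPM at days 10, 15 and 20. EGR1 averaged 49.9 ± 3.81, 91.8 ± 2.19 and 571 ± 14.7 CPM at days 10, 15 and 20. Of 28 unfolded protein and amino acid stress genes 14 were below both (50%, against 28.3% of all genes tested). Another 6 were above both (21.4%, near the 23.5% of all genes tested). The serine synthesis gene PHGDH was below both at 22.9 ± 0.485, 9.14 ± 1.11 and 83.1 ± 5.07 CPM at days 10, 15 and 20. SLC7A5, an amino acid transporter gene, was above both at 182 ± 5.02, 607 ± 17.8 and 117 ± 5.18 CPM at days 10, 15 and 20. Of 30 lysosome and autophagy genes 7 were above both (23.3%, near the 23.5% of all genes tested) and 2 below. The autophagy receptor gene SQSTM1 averaged 82 ± 1.73, 723 ± 37.9 and 201 ± 3.09 CPM at days 10, 15 and 20. The cathepsin gene CTSA averaged 117 ± 1.48, 726 ± 27.4 and 280.2 ± 10.3 CPM at days 10, 15 and 20.

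Most genes of the granulocyte and macrophage lineages did not peak at day 15. Of 12 eosinophil granule genes 5 were above both, though 0 by 2-fold. EPX, the eosinophil peroxidase gene, had 1.08, 1.05 and 1.32 CPM at day 10. At day 15 EPX had 2955, 3006 and 3137 CPM, and at day 20 it had 1808, 1809 and 1797 CPM, so the step up was large (2654-fold) and the step down 1.68-fold. CLC averaged 3.42 ± 0.599, 894 ± 5.17 and 884 ± 38.8 CPM at days 10, 15 and 20 and did not pass between days 15 and 20 (adjusted p = 0.66), though it did with DESeq2 size factors and with all 12 libraries. With plain library sizes the eosinophil count was 2 of 12. The 5 eosinophil markers summed to between 7398 and 7910 CPM per library at day 15, against 107 to 116 CPM at day 10 and 5379 to 5551 CPM at day 20. Of 28 neutrophil granule genes 3 were above both (10.7%, against 23.5% of all genes tested) and 0 below. The lipocalin gene LCN2 averaged 19.2 ± 2.33, 162 ± 6.21 and 24.8 ± 2.25 CPM at days 10, 15 and 20. The histone deiminase gene PADI4 averaged 19.9 ± 1.93, 454 ± 17.9 and 104 ± 2.79 CPM at days 10, 15 and 20. Of 36 monocyte and macrophage genes 0 were above both and 3 below both (8.33%, under the 28.3% of all genes tested). The lipoprotein gene APOE averaged 67.1 ± 3.16, 24.3 ± 2.52 and 972 ± 26.9 CPM at days 10, 15 and 20. The receptor gene TREM2 averaged 14.6 ± 0.917, 7.83 ± 1.14 and 98.4 ± 4.98 CPM at days 10, 15 and 20. The sums of 5 markers per lineage rose through the 3 days for neutrophils (72.7 to 81.3, then 1603 to 1755, then 5737 to 6054 CPM per library) and for monocytes or macrophages (95.5 to 106, then 443 to 496, then 1941 to 2011 CPM). These sums cover the same libraries as the platelet and interferon genes, and their part in those results was not tested.

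The defining T-cell markers were close to 0, against the label of T progenitor cells at day 15. The T-cell receptor, transcription factor and Notch lists had shares above both near or somewhat over the 23.5% of all genes tested. A list of 28 cytokine and growth factor receptors was under it, with 5 above both (17.9%) and 2 below (7.14%). CD3E and CD3G had 0 counts at days 10 and 15, and 5 T-cell markers together summed to between 0.65 and 1.06 CPM per library at day 15, against 0.326 to 0.846 CPM at day 10 and 1.3 to 1.85 CPM at day 20. Of 16 receptor, CD3 and pre-receptor genes tested 5 were above both (31.2%, all at least 2-fold) and 1 below. PTCRA, which encodes the invariant chain of the pre-T-cell receptor (ENSG00000171611, chromosome 6 from 42915989 to 42925835), had 7.24, 7.51 and 8.28 CPM at day 10. At day 15 PTCRA had 156, 163 and 170.0 CPM, and at day 20 it had 1.91, 1.42 and 1.85 CPM. Day 15 was 21.3-fold above day 10 and 94.5-fold above day 20, without overlap. Bulk RNA does not show which cells made the PTCRA transcripts, and this was not tested. The costimulatory receptor gene CD28 averaged 0.0606 ± 0.0658, 4.27 ± 0.625 and 0.399 ± 0.27 CPM at days 10, 15 and 20. The receptor δ constant gene TRDC averaged 0.112 ± 0.105, 5.19 ± 0.359 and 1.53 ± 0.577 CPM at days 10, 15 and 20. The signalling chain gene CD247 averaged 0.0635 ± 0.0704, 1.59 ± 0.097 and 0.232 ± 0.204 CPM at days 10, 15 and 20. All 3 were low. The adaptor gene LAT, which platelets also use, averaged 311 ± 8.86, 788 ± 15.9 and 51.4 ± 1.04 CPM at days 10, 15 and 20. The kinase gene ZAP70 was below both at 2.26 ± 0.161, 1.2 ± 0.194 and 3.65 ± 0.6 CPM at days 10, 15 and 20. RAG1 averaged 4.28 ± 0.827, 4.94 ± 0.206 and 3.29 ± 1.04 CPM at days 10, 15 and 20 and did not pass against day 10 (adjusted p = 0.4). IL7R averaged 0.461 ± 0.289, 22.6 ± 1.06 and 49.5 ± 1.69 CPM at days 10, 15 and 20 with day 20 highest. CD7 averaged 18.8 ± 1.79, 4.95 ± 0.421 and 3.53 ± 0.39 CPM at days 10, 15 and 20.

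Of 24 T-lineage transcription factors 6 were above both (25%) and 5 below (20.8%), near the 23.5% and 28.3% of all genes tested. GATA3, needed for T-cell commitment, averaged 6.59 ± 0.116, 15.4 ± 1.56 and 8.37 ± 0.919 CPM at days 10, 15 and 20. SOX4 averaged 48.3 ± 1.71, 295 ± 1.46 and 88.4 ± 1.23 CPM at days 10, 15 and 20. ETS1 averaged 119 ± 3.93, 326 ± 1.03 and 88.6 ± 2.55 CPM at days 10, 15 and 20. ID2, an inhibitor of E proteins, was above both as well at 55.6 ± 2.91, 812 ± 17.7 and 205 ± 10.8 CPM at days 10, 15 and 20. TCF7, the Notch-induced factor of early T cells, averaged 4.62 ± 0.455, 2.97 ± 0.629 and 10.4 ± 1.14 CPM at days 10, 15 and 20 and was below both neighbours, but not when the platelet and factor lists were left out (log2 contrast -0.98). The E protein gene TCF3 was below both at 115 ± 1.82, 34.4 ± 2.63 and 84.5 ± 1.24 CPM at days 10, 15 and 20. Of 25 Notch pathway genes 8 were above both (32%) and 3 below (12%), or 4 and 6 with plain library sizes. The Notch targets HES4, HES1 and HEY2 were above both, while HEY1 and MYC were below both. HEY1 averaged 10.7 ± 1.77, 4.01 ± 0.627 and 7.355 ± 0.308 CPM at days 10, 15 and 20. HES4 averaged 10.5 ± 1.1, 55.4 ± 3.14 and 3.92 ± 0.336 CPM at days 10, 15 and 20. HES1 averaged 14.8 ± 1.18, 29.6 ± 1.66 and 14.4 ± 1.5 CPM at days 10, 15 and 20. HEY2 averaged 5.05 ± 0.915, 11.3 ± 1.67 and 1.04 ± 0.246 CPM at days 10, 15 and 20. NOTCH1 averaged 208 ± 5.84, 193 ± 2.23 and 273 ± 13.1 CPM at days 10, 15 and 20 and passed as below both with TMM, at 1.08-fold under day 10, but not with DESeq2 size factors (log2 contrast -0.16), with all 12 libraries (-0.09), with a stricter filter (-0.28) or without the platelet and factor lists (-0.07).

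Progenitor and non-blood genes gave mixed pictures, with shares above both near or under the 23.5% of all genes tested, apart from 26.9% for endothelial genes. Of 26 stem and progenitor genes 8 were below both (30.8%, near the 28.3% of all genes tested) and 2 above (7.69%). MECOM was below both at 16.8 ± 1.14, 3.9 ± 0.505 and 10.3 ± 0.431 CPM at days 10, 15 and 20. CD34 averaged 21.1 ± 1.87, 4.89 ± 0.769 and 1.38 ± 0.224 CPM at days 10, 15 and 20, a continuous decline. Of 21 fetal and pluripotency genes 9 were below both (42.9%, against 28.3% of all genes tested) and 5 above (23.8%). LIN28B, an RNA-binding regulator of the fetal state, was below both at 115 ± 5.75, 25.9 ± 2.94 and 44.7 ± 1.42 CPM at days 10, 15 and 20. SALL4 was below both at 31.2 ± 1.82, 10.5 ± 2.27 and 24.3 ± 1.42 CPM at days 10, 15 and 20. Of 26 endothelial genes 7 were above both (26.9%) and 4 below (15.4%). KDR, a VEGF receptor gene (ENSG00000128052, chromosome 4 from 55078259 to 55125595), had 156, 159 and 156 CPM at day 10. At day 15 KDR had 1770.3, 1717 and 1749.7 CPM, and at day 20 it had 144, 156 and 147 CPM. It stood 11.1-fold above day 10 and 11.7-fold above day 20, while the endothelial cadherin gene CDH5 averaged 39.8 ± 0.862, 6.46 ± 1.22 and 1.93 ± 0.426 CPM at days 10, 15 and 20 and fell at each step. The 5 endothelial markers, which do not include KDR, summed to between 41.1 and 46.4 CPM per library at day 15, against 206 to 217 CPM at day 10 and 28.9 to 32.2 CPM at day 20. Of 28 collagen, stromal and smooth muscle genes 6 were above both (21.4%) and 4 below (14.3%), or 12 below with plain library sizes. The basement membrane gene COL4A1 averaged 111 ± 1.34, 424 ± 7.02 and 146 ± 6.75 CPM at days 10, 15 and 20. COL4A2, its neighbour on chromosome 13, averaged 164 ± 5.97, 1150.2 ± 30.3 and 171 ± 4.61 CPM at days 10, 15 and 20. Of 19 epithelial genes 6 were below both (31.6%, near the 28.3% of all genes tested) and 2 above (10.5%). The keratin gene KRT19 averaged 19.7 ± 0.785, 5.34 ± 1.42 and 149 ± 6.63 CPM at days 10, 15 and 20. EPCAM averaged 5.38 ± 0.764, 1.08 ± 0.195 and 8.62 ± 0.983 CPM at days 10, 15 and 20.

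**Figure D5:**
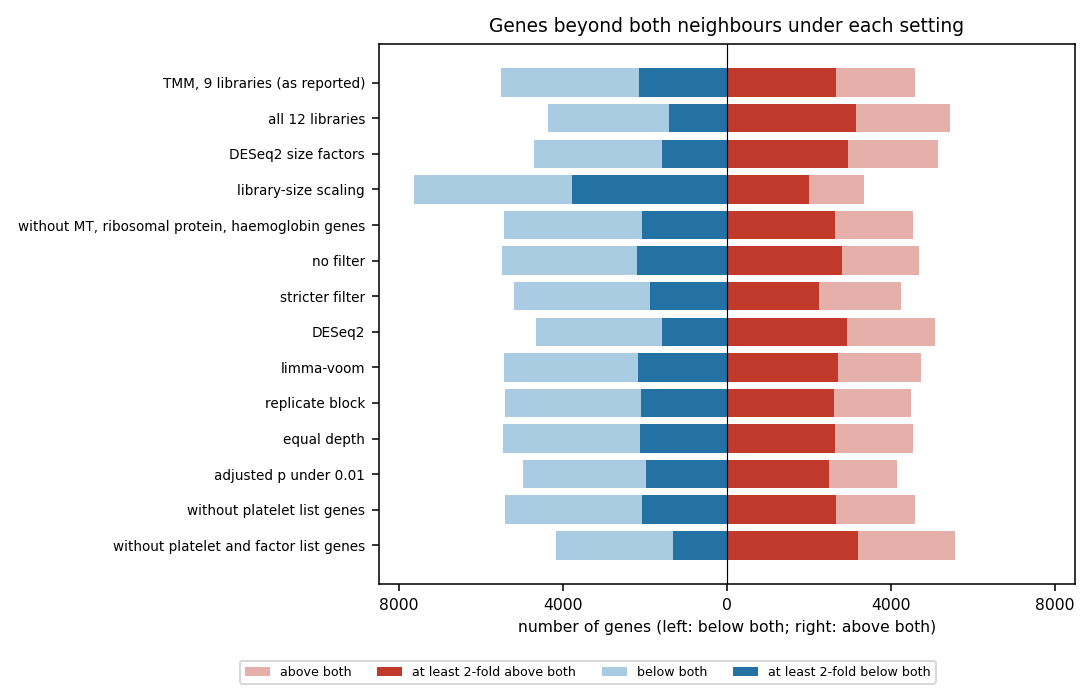
Number of genes above both neighbours (right) and below both (left) under 14 settings, the darker part being those at least 2-fold from each. The count above both lies between 3352 and 5555, the count below both between 4178 and 7648, and plain library-size scaling gives the fewest above both and the most below both.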

How the data were processed

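RNA of 9 libraries (3 each from days 10, 15 and 20) was extracted with Trizol and made into ligation-mediated LM-Seq libraries read as single reads, per the labels' protocols. The deposited table gives raw counts per Ensembl gene, not normalized by the authors. Per the submitters' processing notes the reads were placed on GRCh38. For the aligner, counter, annotation, strand setting and poly(A) selection, the status is: not given in the sources used here. Of 36601 IDs 25321 had a symbol in the name table, and the 11280 without one held 0.441% of the counts.

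Genes were kept with filterByExpr (minimum count 10), scaled by TMM and fitted with edgeR 4.0.16 (glmQLFit, robust) in R 4.3.3 with 1 coefficient per day. Day 15 was tested against the mean of its neighbours and against each of them, with Benjamini-Hochberg adjustment and a threshold of 0.05. The common biological coefficient of variation was 6.04%. TMM factors were 0.839 to 0.851 at day 15, against 1.064 to 1.069 at day 10 and 1.100 to 1.115 at day 20. A total of 3 counts over the libraries of a day corresponds to 0.0305, 0.0387 and 0.0311 CPM at days 10, 15 and 20, a limit that covers counting error only. Replicates differed by more than sampling noise (chi-square per gene 3.49 to 4.99), so none were merged. The procedure was also run on simulated data in which every day was drawn from the day 10 means (17429 genes). It recovered 83.6% of 67 genes changed 1.5-fold and 100% of those changed 2- or 4-fold (67 and 66 genes). The changed genes were few and well counted at day 10. The simulation therefore does not cover weakly expressed genes, a broad shift in composition or the choice of scaling.

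The genes named are the 10 largest peaks with at least 10 CPM at day 15, the 10 deepest troughs with at least 10 CPM at the lower neighbour (both without overlap between day 15 and the other libraries), the 10 most abundant genes at least 2-fold above both, up to 4 per direction from each of 40 gene lists, and a panel. IFNB1, E2F1, MYBL2, BST2, IFITM2, TP53I3, HSPA1B, DNAJB4, LAT and ZAP70 were added after their values were seen. The members, lists, panel and markers were chosen with earlier results of these data known. Lists are described by counts and medians, and shares of counts by values only, in place of the permutation test first planned. Promoters are RefSeq sequences on GRCh38.p14, and gene positions are from GENCODE 29 on GRCh38. The alternatives were other scalings (DESeq2 1.42.0 size factors, plain library sizes, all 12 libraries), other filters, DESeq2, limma-voom (limma 3.58.1), equal depth, a replicate block and each library left out. Scaling without platelet genes, and without platelet and erythroid-megakaryocyte factor genes, was added after seeing the data. Some genes that the rule names are not reported here.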

Additional observations from a re-analysis of the deposited data

How the results depend on the processing

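Scaling moved the counts most. The genes at least 2-fold below both neighbours numbered 2138 with TMM, 1410 when all 12 libraries were fitted, 3779 with plain library sizes, and 1315 without the platelet and erythroid-megakaryocyte factor genes, a setting chosen after seeing the data. The median log2 contrast of all genes was -0.15 with TMM, 0.06 with all 12 libraries, -0.51 with plain library sizes and 0.09 without those genes; the cause was not tested. Plain library sizes kept 73.1% of the genes above both and 100% of those below, and DESeq2 size factors kept 100% and 85.4%. With plain library sizes 33 genes switched from one side to the other, and 3 did without the platelet and factor genes. Leaving out 1 library at a time gave 4422 to 4574 genes above both and 5337 to 5431 below both, and 2588 to 2700 and 2076 to 2195 at 2-fold or more.

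Same-numbered libraries did not deviate together over all genes tested (r between -0.0247 and 0.00696). Counting noise in weakly expressed genes also brings such an r near 0. Whether the numbers pair libraries is therefore not settled. With a replicate block 4498 genes were above both and 5418 below both, or 2609 and 2108 at 2-fold or more.

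Without mitochondrial, ribosomal protein and haemoglobin genes, the share of counts at day 15 minus the mean of days 10 and 20 was 6.89 percentage points for platelet lists (6.72 with all genes), 0.900 for interferon-stimulated genes (0.871), -0.784 for replication and mitosis genes (-0.699) and 0.317 for histone genes (0.302). The log2 contrast changed sign for 4 named genes. JUN (-0.04 with TMM) had 0.18 with all 12 libraries, 0.11 with size factors and with DESeq2, and 0.20 without platelet and factor genes. CD34 (-0.14) had 0.073, 0.0048, 0.0062 and 0.098 in the same order. HSPA1A (0.02) had -0.35 with plain library sizes, -0.015 at equal depth and -0.0075 without day 10 replicate 1. With day 15 replicate 3 or 1 left out it had -0.097 and 0.081, the ends of the range over left-out libraries. HSPA1B (0.32) had -0.043 with plain library sizes. Depth limits the genes of a few CPM, such as CD247 and ZAP70, most.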

Other observations

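Long non-coding genes were frequent among the rises. The count filter lets a weakly expressed gene be tested through its day 15 libraries alone, which favours rises over falls among such genes. The part of this in the shares below was not tested. Of 3504 tested, 24.4% were at least 2-fold above both neighbours at day 15 and 6.19% below, against 10.7% and 12.2% of 15588 protein-coding genes. Intergenic lincRNA genes gave 29.1% and 6.41% (1310 tested) and antisense genes 22.8% and 5.87% (1636 tested). Of the 373 antisense genes at least 2-fold above both, 309 (82.8%) overlap a protein-coding gene and 138 (37.0%) one that is itself at least 2-fold above both, so without strand their reads are uncertain. For 381 lincRNA genes the overlap with such a gene held for 24 (6.3%).

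Genes at least 2-fold above both neighbours often lay side by side. Among protein-coding genes 42.0% of them had an adjacent tested gene of the same set, against 19.7% of all tested protein-coding genes, and for genes at least 2-fold below both the values were 36.5% and 22.7%. The longest run held 17 genes on chromosome 6 from 26026815 to 26217483, all histone genes but for HFE, and another of 12 genes lay from 27807444 to 27958182 on the same chromosome. A run of 5 on chromosome 10 from 89283694 to 89421001 comprised IFIT2, IFIT3, IFIT1B, IFIT1 and IFIT5, where IFIT1B and IFIT1 are close in sequence. Another 5 on chromosome 4 from 73981077 to 74099293 were the chemokine genes PF4, PPBP, CXCL5, CXCL3 and CXCL2, and 5 on chromosome 6 from 32812763 to 32859585 were HLA-DOB, TAP2, PSMB8, PSMB9 and TAP1.

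Promoter letters differed between groups, counted on both strands from 250 bases before to 50 after the start. TATAAA was in 15 of 21 promoters of histone genes above both (71.4%), against 12.0% of all 27305 promoters. CCAAT was in 17 of these 21 (81.0%) and in 40 of 61 promoters of replication and mitosis genes below both (65.6%), against 35.7% of all. The motif of the GATA factors (letters AGATAA) was in 8 of 50 promoters of platelet genes above both (16%), in 5 of 24 of interferon-stimulated genes (20.8%) and in 3 of 21 of histone genes above both (14.3%), against 6.18% of tested genes and 10.5% of all promoters. A match describes the letters only.

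At day 25, on the scale of all 12 libraries, 14 of the 2651 genes at least 2-fold above both (0.528%) had a mean at or above that of day 15. The day 25 mean was under both day 10 and day 20 for 1210 (45.6%), between them for 783 (29.5%) and over both for 658 (24.8%). Of the 2138 genes at least 2-fold below both, 42 (1.96%) were at or under the day 15 mean at day 25. Their day 25 mean was under both day 10 and day 20 for 1097 (51.3%), between them for 478 (22.4%) and over both for 563 (26.3%). The sets were selected for a day 15 level beyond both neighbours, which by itself makes such a level at day 25 uncommon. The same shares were not counted over all genes tested, so these values do not set the sets apart from other genes.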
